A study of Mus musculus with 2 samples.

Results

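The tripartite motif (TRIM) gene family was described in nuclei of mouse mesenteric perivascular fat, the fat that surrounds the mesenteric arteries. Members were all genes of the deposited gene list whose symbol is Trim, a number and an optional letter, which gave 68 of 32285 genes. Of these, 6 were the Trim12 and Trim30 genes, which lie together on chromosome 7, and 62 were other members. The family was chosen by its symbols, but singled out, and the Trim12 and Trim30 genes set apart, on values of these same 2 libraries: some of these genes had been seen to be lower in 1 library. Their differences below are therefore a description. TRIM proteins carry a RING domain, B-boxes and a coiled coil, and most act as E3 ubiquitin ligases. Many are interferon-stimulated genes that restrict viruses or tune the signalling of innate immune receptors. Type I interferon signals through the kinases JAK1 and TYK2 to genes that carry a DNA element called the interferon-stimulated response element (ISRE). In mice, the Trim12 and Trim30 genes arose by tandem duplication beside Trim5, and Trim30a is known as a brake on NF-kappaB signalling through the adaptors TAB2 and TAB3.

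Single nuclei were sequenced in droplets, from the 3' ends of nuclear transcripts, in 2 libraries of mice aged 11 weeks. The control library came from mice of genotype Prdm16flox. The other came from mice labelled Prdm16flox, AdopiQCre+, in which Cre recombinase under the adiponectin promoter is meant to remove Prdm16, a regulator of the thermogenic fat programme, from adipocytes. Both libraries thus carry the floxed allele, and the comparison asks how the tissue differs when adipocytes lack Prdm16. The labels name neither the strain nor the number of animals in a library, and the series title names thoracic and abdominal fat where the sample labels name mesenteric fat. Each genotype had 1 library and there was no replicate check. Every difference below therefore compares these 2 libraries, and every interval is a 95% interval that covers counting error only.

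After filtering, 10532 control nuclei with 92826932 unique molecular identifiers (UMIs, counted transcript molecules) and 7374 nuclei of the other library with 62139712 UMIs were kept. They fell into 27 clusters. Comparisons were made in the 10 named classes that held 100 nuclei or more per library. In adipocyte-like nuclei, the Cre library did not have less Prdm16 (16.7 CPM, that is UMIs scaled to a common total, in the control against 22.3 CPM there, log2 ratio 0.42, 0.28 to 0.55), and 3' counts need not cover the floxed exon. Vascular endothelial-like nuclei, the compared class with the highest Prdm16 level, ran the other way, with 1075 and 369 UMIs (280 against 146 CPM, -0.94, -1.12 to -0.77). The Cre library is therefore called the library labelled Prdm16 cKO, or cKO-labelled. The 10 adipocyte markers were detected in every class, with none at 0 UMIs. Their summed level in the 9 other classes ran from 4838 to 9550 CPM (control) and from 5270 to 10521 CPM (cKO-labelled). As a percentage of the adipocyte-like level, it was further apart between the libraries than elsewhere in vascular endothelial-like (23.9% and 43.2%), B cell-like (24.0% and 44.1%) and T cell-like nuclei (26.9% and 42.7%). The part of adipocyte RNA in the TRIM values of those classes was not tested. Between the libraries 28 barcodes were shared, 24 of them among kept nuclei.

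Of the 68 members, 3 had 0 UMIs in both libraries and 14 had under 20 UMIs in all kept nuclei. A log2 ratio (cKO-labelled over control) was read for a class only where a gene had at least 20 UMIs over both libraries. That left 50 members in adipocyte-like nuclei, 15 members in every compared class and none in any class for 18 members. Members lay on 15 chromosomes, with 16 of them on chromosome 7. The muscle genes Trim54, Trim55, Trim63 and Trim72, among them the muscle atrophy ligase gene Trim63 (MuRF1), were all under this minimum in adipocyte-like nuclei.

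The Trim12 and Trim30 block covers 208 kb on chromosome 7 (GRCm38, 104299894 to 104507849). Trim12a (104299894 to 104315466), Trim12c (104338754 to 104353362), Trim30b (104355382 to 104369884), Trim30c (104382065 to 104400837), Trim30a (104409025 to 104465193) and Trim30d (104470014 to 104507849) follow each other, all on the minus strand. Trim5 (104263386 to 104288094, minus strand), Trim34a (104244457 to 104262234, plus strand) and Trim6 (104218793 to 104235152, plus strand) lie just before the block, and Trim34b (104329471 to 104336909, plus strand) lies inside it. Some of these genes are close copies of each other. Of all 90-base words of its annotated transcripts, Trim12a shared 3.34% with another of these 10 genes, Trim12c 10.4%, Trim5 12.0%, Trim30a 4.64%, Trim30d 4.84%, Trim34a 24.1% and Trim34b 34.9%, while Trim6, Trim30b and Trim30c shared 0%. Counts of Trim34a and Trim34b in particular are uncertain, since reads from shared stretches can be lost or split. Trim12a overlaps Gm15133 on the other strand and Trim30d overlaps Gm16464 on its own strand, and the handling of strand is not given in the sources used here.

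Promoters from RefSeq (GRCm38.p6) are shown for Trim12a, Trim12c and Trim5, whose start regions were close copies while their counts differed between the libraries in different ways, and for Trim30a and Trim30d, a second such pair. Over 300 bases, Trim12c matched Trim5 at 265 positions (88.3%) and Trim12a at 248 (82.7%) in a global alignment, and Trim30a matched Trim30d at 277 (92.3%). Each sequence below runs 5' to 3' from 100 bases before to 30 bases after the annotated start, on the minus strand, with the core of the ISRE in capitals (TTTC, any 2 bases and TTTC again, which on the other strand is GAAA, any 2 bases and GAAA; both strands were searched). The windows are chr7:104315466-104315595 for Trim12a, chr7:104353320-104353449 for Trim12c, chr7:104288077-104288206 for Trim5, chr7:104465164-104465293 for the upstream start of Trim30a and chr7:104507820-104507949 for Trim30d.
Trim12a: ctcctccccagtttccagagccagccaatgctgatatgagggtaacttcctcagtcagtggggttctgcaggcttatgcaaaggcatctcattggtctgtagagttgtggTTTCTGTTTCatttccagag
Trim12c: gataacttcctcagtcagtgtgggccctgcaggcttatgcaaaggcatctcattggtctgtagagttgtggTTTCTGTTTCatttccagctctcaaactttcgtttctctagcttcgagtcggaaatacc
Trim5: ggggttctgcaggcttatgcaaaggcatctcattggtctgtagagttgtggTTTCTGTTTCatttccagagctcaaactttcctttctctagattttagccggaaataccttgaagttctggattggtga
Trim30a: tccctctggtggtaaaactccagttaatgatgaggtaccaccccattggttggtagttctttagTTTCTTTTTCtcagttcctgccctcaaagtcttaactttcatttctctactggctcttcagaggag
Trim30d: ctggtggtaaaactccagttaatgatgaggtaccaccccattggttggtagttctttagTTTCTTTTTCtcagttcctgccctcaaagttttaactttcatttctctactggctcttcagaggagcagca

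Against the RefSeq starts, the same ISRE core lay 10 bases after the start in Trim12a. It lay 29 bases before the start in Trim12c and 49 bases before it in Trim5. In Trim30a and Trim30d it lay 36 and 41 bases before the start. The gene range given above starts Trim12a at 104315466, the end of its printed window, so the core lies before that start. The side of the core in Trim12a thus depends on the annotation. Among all promoters of 300 bases in the table, 1131 of 32851 (3.44%) held the core. A promoter was given for 53 of the 68 members, 67 promoters in all, and 10 of these held it. They belonged to Trim12a, Trim12c, Trim30a, Trim30d, Trim5, Trim34a, Trim2, Trim21 and Trim26, so 6 of the 9 members lie in or beside the block. No core was found in these windows of Trim30b, Trim30c, Trim34b or Trim6. The window of Trim30b lies inside the gene range given above, and the start of that range, at 104369884, was not searched. A match is a stretch of letters and not a measured binding site.

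Trim12a was lower in the cKO-labelled library in all 9 classes in which it could be read. Adipocyte-like nuclei gave 406 control and 113 cKO-labelled UMIs of Trim12a, or 6.91 CPM (6.26 to 7.62) against 2.87 CPM (2.37 to 3.46), and a log2 ratio of -1.27 (-1.58 to -0.96). The widest gaps lay in lymphocytes, with 68.8 and 7.75 CPM in T cell-like (110 and 9 UMIs, -3.15, -4.32 to -2.17) and 55.6 and 7.49 CPM in B cell-like nuclei (66 and 7 UMIs, -2.89, -4.26 to -1.77). Mesothelial-like nuclei had 25.3 and 4.59 CPM (170 and 15 UMIs, -2.46, -3.33 to -1.70). The remaining classes lay between these and the adipocytes in the control. Macrophage-like nuclei had 21.1 and 5.09 CPM (-2.05, -2.97 to -1.24) and progenitor or fibroblast-like nuclei 17.3 and 4.79 CPM (-1.85, -2.52 to -1.23). Lymphatic endothelial-like nuclei had 19.7 and 4.73 CPM (-2.05, -4.43 to -0.33), vascular endothelial-like nuclei 17.2 and 6.33 CPM (-1.44, -2.33 to -0.64) and dendritic-like nuclei 16.7 and 7.35 CPM (-1.18, -2.50 to -0.04). In granulocyte-like nuclei, with too few UMIs for a ratio, the control gave 12 UMIs and the cKO-labelled library 0. Against the limit of 3 counts, which is 10.9 CPM there, the control was at least 2.08-fold higher, and the upper end of the log2 ratio's interval, which also covers the counting error of the control, was -0.53.

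The order of Trim12a levels over classes also differed between the libraries. In the control, T cell-like and B cell-like nuclei stood above the others beyond their intervals (56.5 to 82.9 CPM and 43.0 to 70.7 CPM, with mesothelial-like next at 21.6 to 29.4 CPM) but not apart from each other. Mesothelial-like, macrophage-like, lymphatic endothelial-like, progenitor or fibroblast-like, vascular endothelial-like and dendritic-like nuclei overlapped in turn, and adipocyte-like nuclei stood below all of them. In the cKO-labelled library the intervals of all classes other than the adipocytes overlapped, at levels between 4.59 and 7.75 CPM where any UMI was found. Of the classes too small to compare, the natural killer or innate lymphoid-like class gave 40 and 2 UMIs of Trim12a (42.5 and 5.18 CPM, -3.04, -6.13 to -1.09). Pericyte-like nuclei gave 10 and 0, smooth muscle-like 5 and 0, pancreatic acinar-like 4 and 5, and intestinal epithelial-like 5 and 1. Cluster 3, left out because it had no name, gave 17 and 17 UMIs (11.2 and 6.80 CPM, -0.72, -1.78 to 0.34).

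Trim12c, the close copy, did not follow Trim12a. Adipocyte-like nuclei gave 999 control and 708 cKO-labelled UMIs, or 17.0 against 18.0 CPM (log2 ratio 0.08, -0.06 to 0.22). T cell-like nuclei had 65.6 and 63.7 CPM (-0.04, -0.49 to 0.40). Mesothelial-like (0.31, 0.02 to 0.60) and progenitor or fibroblast-like nuclei (0.32, 0.01 to 0.63) were slightly higher, macrophage-like nuclei were at 0.31 (-0.05 to 0.67), and only B cell-like (-0.67, -1.25 to -0.11) and vascular endothelial-like nuclei (-0.45, -0.83 to -0.09) of the 10 classes had intervals below 0. The share of Trim12a among the UMIs of both genes set the copies side by side within a library. In T cell-like nuclei it was 51.2% (110 of 215 UMIs, exact Clopper-Pearson interval 44.3 to 58.0%) for the control and 10.8% (9 of 83, 5.08 to 19.6%) for the cKO-labelled nuclei. Adipocyte-like nuclei had 28.9% (26.5 to 31.3%) and 13.8% (11.5 to 16.3%), and mesothelial-like nuclei 38.7% (34.1 to 43.5%) and 8.47% (4.82 to 13.6%). The share was smaller in the cKO-labelled library in 10 of 10 classes, with intervals that overlapped in dendritic-like, granulocyte-like, lymphatic endothelial-like and vascular endothelial-like nuclei.

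Trim30d was also lower wherever it could be read, in 7 of 7 classes. Adipocyte-like nuclei gave 103 control UMIs (1.75 CPM, 1.43 to 2.13) and 18 cKO-labelled UMIs (0.46 CPM, 0.27 to 0.72), with a log2 ratio of -1.94 (-2.75 to -1.21). Macrophage-like nuclei had 26.2 and 7.26 CPM (132 and 20 UMIs, -1.85, -2.61 to -1.17), and progenitor or fibroblast-like nuclei 19.2 and 9.58 CPM (140 and 52 UMIs, interval of the log2 ratio -1.49 to -0.54). Trim30d was thus lower in immune, stromal and vascular classes, by differing sizes. Mesothelial-like nuclei had 58 and 7 UMIs (-2.01, -3.39 to -0.88), B cell-like nuclei 20 and 5 (-1.65, -3.42 to -0.20) and vascular endothelial-like nuclei 34 and 7 (-1.68, -3.10 to -0.48). Dendritic-like nuclei differed least, with 43 and 16 UMIs (-0.52, -1.45 to 0.34). T cell-like nuclei gave 19 control and 0 cKO-labelled UMIs, which against the limit of 3 counts (2.58 CPM) is at least 4.60-fold higher in the control. The upper end of the log2 ratio's interval was -1.76. Its copy Trim30a differed little in most classes. Trim30a stood at 5.19 and 4.05 CPM in adipocyte-like nuclei (-0.36, -0.65 to -0.08), 105 and 97.0 CPM in macrophage-like nuclei (-0.11, -0.33 to 0.11) and 98.1 and 93.8 CPM in T cell-like nuclei (-0.06, -0.43 to 0.30). In adipocyte-like nuclei the direction did not hold throughout, with -0.01 after thinning, 0.77 in cluster 6 and 0.27 in cluster 11. Only in the vascular endothelial-like class was it at least 1.5 times apart, at 88.7 and 51.0 CPM (-0.80, -1.10 to -0.50), and adipocyte marker RNA also differed between the libraries there.

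Trim30c and Trim30b were low in most classes. Trim30c was highest in macrophage-like nuclei, with 229 and 161 UMIs (45.5 and 58.5 CPM, 0.36, 0.06 to 0.66), while in adipocyte-like nuclei it had 56 and 19 UMIs (0.95 and 0.48 CPM, -0.98, -1.81 to -0.21). Trim30b had 26 and 25 UMIs in B cell-like nuclei (21.9 and 26.8 CPM, 0.29, -0.56 to 1.14), 30 and 9 in macrophage-like nuclei (-0.87, -2.13 to 0.24) and 15 and 9 in adipocyte-like nuclei (-0.16, -1.53 to 1.13). These 3 differences were not detectable at this depth, while dendritic-like nuclei gave 25 and 5 UMIs of Trim30b (12.2 and 4.59 CPM, -1.41, -3.16 to -0.00). Summed over all 6 genes, adipocyte-like nuclei stood at 32.1 against 26.1 CPM (-0.30, -0.41 to -0.19). Reads shared with Trim5 lie outside that sum. The sum was lower in 9 of the 10 classes, from -0.74 (-0.96 to -0.53) in vascular endothelial-like nuclei and -0.55 in both B cell-like and T cell-like nuclei to -0.16 (-0.31 to -0.02) in macrophage-like nuclei. Granulocyte-like nuclei (-0.30, -1.03 to 0.40) had an interval that included 0, and lymphatic endothelial-like nuclei were at 0.10 (-0.48 to 0.66). In dendritic-like nuclei the sum of -0.31 (-0.59 to -0.04) turned to 0.19 when nuclei were thinned to 1000 UMIs and to 0.10 as a mean of CPM per nucleus.

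**Figure D1:**
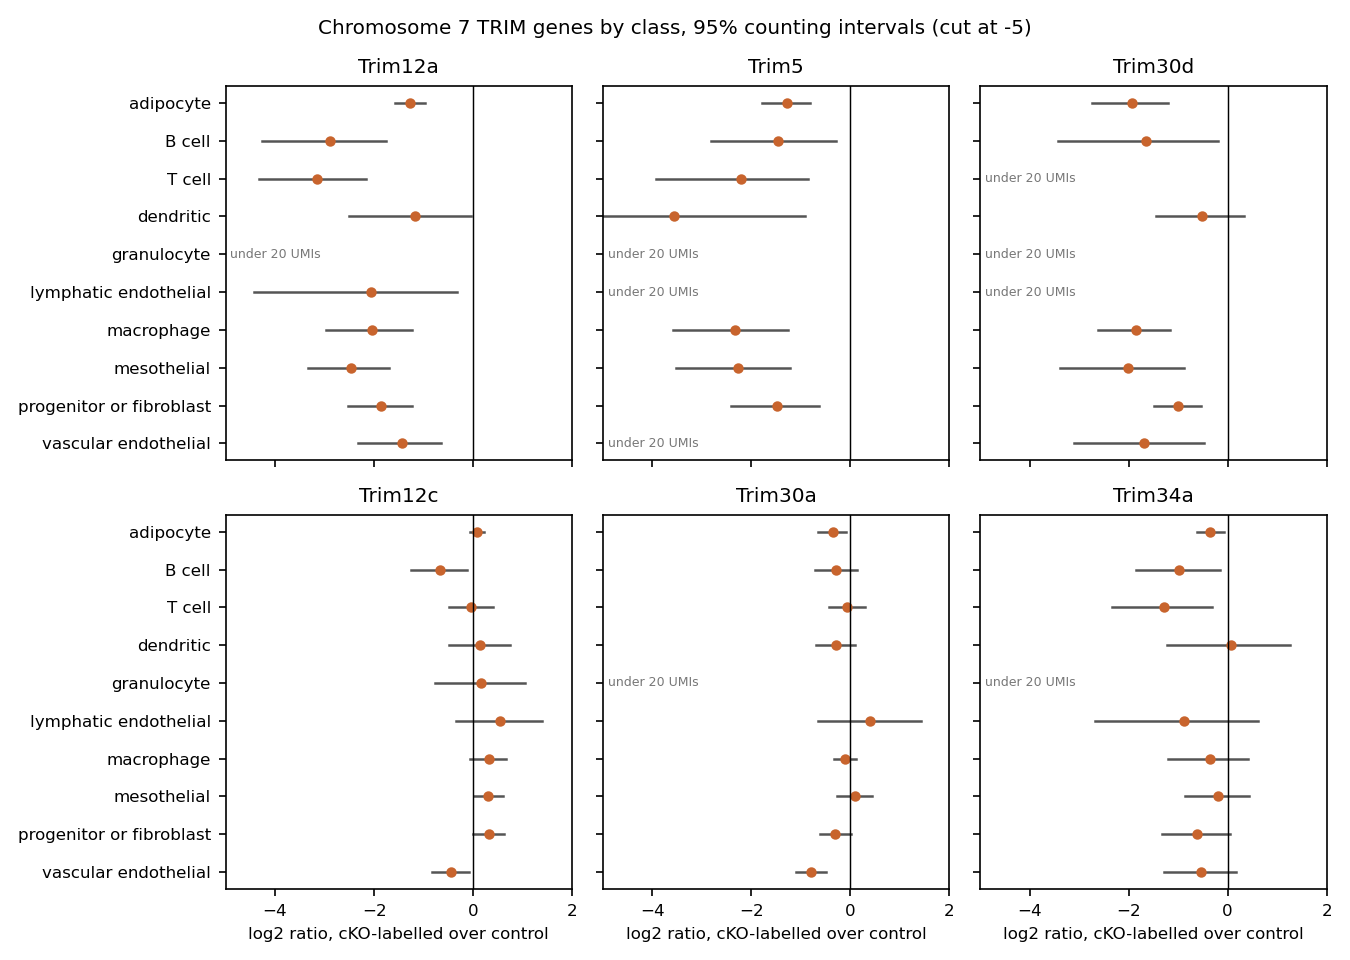
Log2 ratio of level (x axis, cKO-labelled over control) by class of nuclei (y axis) for 6 TRIM genes in or beside the chromosome 7 block; points are ratios, lines are 95% counting intervals (cut at the left edge), and classes under 20 UMIs are marked. Trim12a, Trim5 and Trim30d lie left of 0 in every class shown, while Trim12c and Trim30a lie around 0 in most.

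Of the neighbours, Trim5, named after the primate antiviral factor that recognises retroviral capsids, showed the same direction as Trim12a. It was lower in all 7 classes in which it could be read, with 168 and 46 UMIs in adipocyte-like nuclei (2.86 and 1.17 CPM, -1.29, -1.79 to -0.81). Macrophage-like nuclei had 73 and 8 UMIs (14.5 and 2.91 CPM, -2.32, -3.59 to -1.27), mesothelial-like nuclei 79 and 8 (-2.26, -3.52 to -1.21), T cell-like nuclei 32 and 5 (-2.22, -3.93 to -0.85) and B cell-like nuclei 28 and 8 (-1.46, -2.81 to -0.29). In dendritic-like nuclei the 22 and 1 UMIs gave a ratio of -3.55 with a wide interval (-8.92 to -0.92). Trim5 shared 12.0% of its words with another of the 10 genes, most of them with Trim12c, whose level was not lower in most classes. Of the 40 members that could be read in at least 5 classes, Trim5 and Trim12a were at least 1.5 times lower in every one of them, which held for 0.152% of all genes (18 of 11872). No member was at least 1.5 times higher in every class, against 0.413% of all genes. The genes lower in every class also held Ang4, a top gene of intestinal epithelial-like nuclei (119 control and 18 cKO-labelled nuclei). Those higher in every class held Cpb1 and Cela1, top genes of pancreatic acinar-like nuclei (68 and 174 nuclei). They also held Elovl6 and Acly, among the top genes of adipocyte-like clusters 4 and 6 and higher in all 10 classes. The part of RNA from other cells in these 2 shares was not tested. Trim34a was lower in T cell-like (40 and 12 UMIs, -1.28, -2.34 to -0.32), B cell-like (-0.98, -1.85 to -0.16) and adipocyte-like nuclei (5.57 and 4.38 CPM, -0.35, -0.62 to -0.08). Trim34b was at 3.41 and 4.12 CPM in adipocyte-like nuclei (0.28, -0.03 to 0.58) and Trim6 at 4.38 and 5.24 CPM (0.26, -0.01 to 0.53). Both of these intervals included 0. Thinning moved Trim34b to 1.57 and Trim6 to -0.13, cluster 6 alone had Trim34b at 1.01 and cluster 11 alone had Trim6 at -1.89. Trim34a was at 0.09 in cluster 4 and 0.62 in cluster 6.

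Within 1 Mb of the block lay 110 genes that are not TRIM members, and 10 of them could be read in adipocyte-like nuclei. Of these, 3 were at least 1.5 times higher, 1 was lower and 6 lay within 1.5 times, with a median log2 ratio of 0.15. The odorant receptor gene Olfr607 gave 1 control and 56 cKO-labelled UMIs (log2 ratio 6.39, 3.85 to 11.72). Olfr655, of the same family, had 28 and 82 UMIs (0.48 and 2.09 CPM, 2.13, 1.49 to 2.80), and Olfr690 had 23 and 2 (-2.94, -6.07 to -0.93). The beta-globin gene Hbb-bs, a red blood cell transcript, had 90 and 124 UMIs (1.04, 0.64 to 1.45). Differences in the region thus ran both ways. In other classes, B cell-like nuclei gave 31 and 3 UMIs of Hbb-bs (-3.02, -5.38 to -1.34) and progenitor or fibroblast-like nuclei 22 and 8 of Olfr655 (-1.03, -2.41 to 0.19). The labels give neither strain nor litter, so the genetic background of the animals cannot be told apart from their genotype in these values. Olfr607 came mostly from adipocyte-like clusters 4 (1 and 23 UMIs) and 6 (0 and 28 UMIs), and in cluster 6 Olfr655 had 1 and 24 UMIs.

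**Figure D2:**
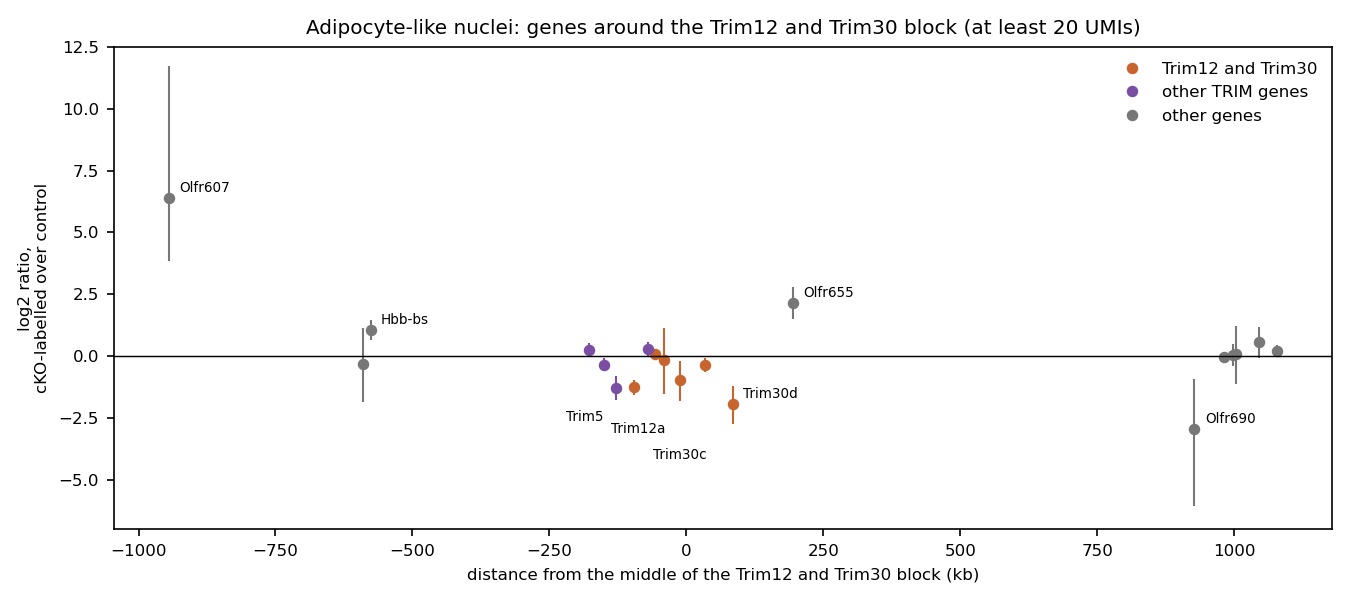
Log2 ratio in adipocyte-like nuclei (y axis, cKO-labelled over control, with 95% counting intervals) against distance from the middle of the block (x axis, kb), for genes with at least 20 UMIs; genes at least 1.5 times apart are named. Lower and higher genes both occur, and the 4 genes named around the middle are Trim5, Trim12a, Trim30c and Trim30d.

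Adipocyte-like nuclei fell into 5 clusters, over which the libraries spread unequally: the control gave 1971, 1251, 607, 313 and 332 nuclei to clusters 0, 1, 4, 6 and 11, and the cKO-labelled library 735, 701, 695, 669 and 223. Fatty acid synthesis genes such as Elovl6 and Acly were among the top genes of clusters 4 and 6. The lower Trim12a level held in clusters 0 (8.08 and 1.98 CPM, -2.03, -2.81 to -1.33), 1 (6.82 and 3.09 CPM, -1.14, -1.77 to -0.56) and 11 (10.1 and 2.96 CPM, -1.77, -3.31 to -0.52). In cluster 4 it was at 5.07 and 3.89 CPM (-0.38, -1.07 to 0.30), and in cluster 6 at 1.76 and 2.53 CPM (8 and 24 UMIs, 0.53, -0.68 to 1.89). Trim12a therefore differed between the libraries by at least 1.5 times in the same direction in 3 of the 5 clusters. Trim5 was at -1.82 (-3.09 to -0.77) in cluster 0 and -1.84 (-3.13 to -0.75) in cluster 1, but at -0.16 (-1.14 to 0.82) in cluster 4, and it had 5 and 11 UMIs in cluster 6 (0.08, -1.56 to 1.95) and 15 and 0 in cluster 11. Trim30d was at -2.70 (-5.02 to -1.07) in cluster 0 and -1.70 (-3.43 to -0.32) in cluster 1, with 9 and 2 UMIs in cluster 4 and 2 and 6 in cluster 6. Within the control library alone, the cluster 6 level of Trim12a (0.76 to 3.47 CPM) lay below that of clusters 0, 1, 4 and 11 without overlap of the intervals. Trim12c was between 15.6 and 22.7 CPM in all 5 clusters of the control.

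Trim67, the member with the largest number of UMIs among those at least 1.5 times lower, behaved otherwise. It encodes a TRIM protein best known from neurons and close to TRIM9. Adipocyte-like nuclei gave 1251 control UMIs (21.3 CPM, 20.1 to 22.5) and 469 cKO-labelled UMIs (11.9 CPM, 10.9 to 13.1), with a log2 ratio of -0.84 (-0.99 to -0.68). All 5 adipocyte-like clusters had less Trim67, at -0.42, -0.72, -1.11, -0.53 and -1.77 for clusters 0, 1, 4, 6 and 11 in that order, and each interval lay below 0. In the control, adipocyte-like nuclei held the highest Trim67 level of the compared classes, with dendritic-like nuclei next at 9.80 CPM (20 UMIs). In the other 9 classes the cKO-labelled level lay between 1.58 and 10.9 CPM. No class other than the adipocytes had a Trim67 interval that excluded 0. It overlaps Gm16163 on the same strand.

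**Figure D3:**
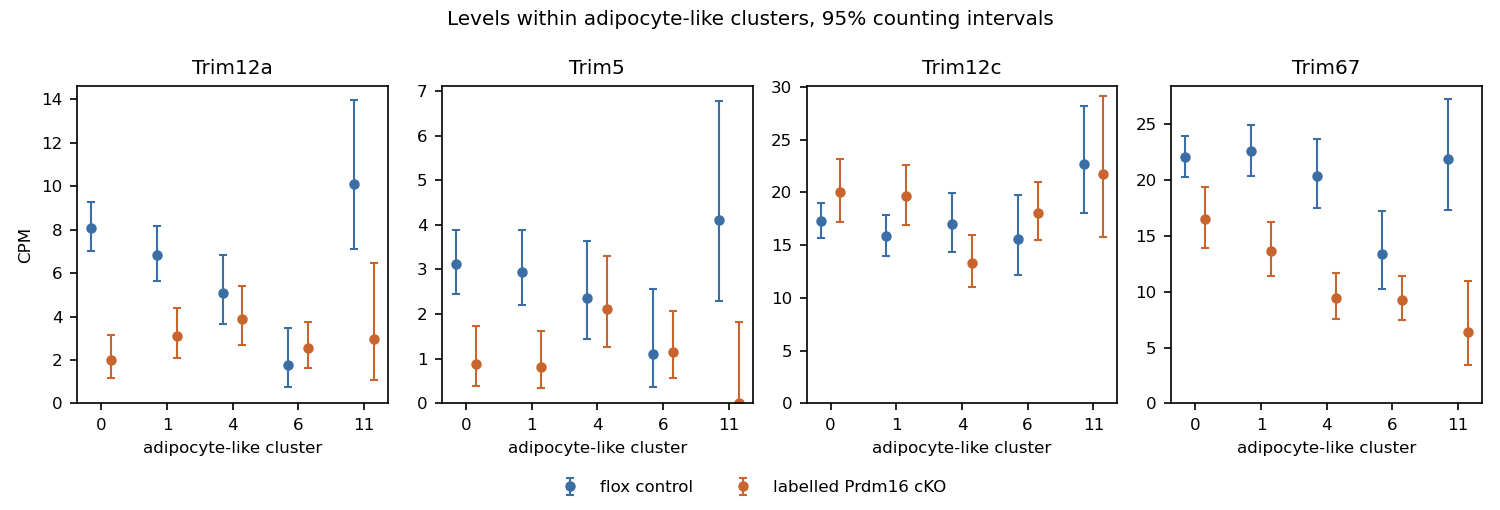
Levels in CPM (y axis) of Trim12a, Trim5, Trim12c and Trim67 in each of the 5 adipocyte-like clusters (x axis) for the control library (blue) and the library labelled Prdm16 cKO (orange), with 95% counting intervals. The libraries differ in Trim12a and Trim5 in clusters 0, 1 and 11 and overlap in clusters 4 and 6, while Trim67 is lower in all 5.

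Over the whole family in adipocyte-like nuclei, 7 of the 50 members read were at least 1.5 times lower, against 5.16% of all genes (910 of 17647), and 2 were at least 1.5 times higher, against 7.53%. The other 41 lay within 1.5 times. Without the Trim12 and Trim30 genes, the median log2 ratio of members was -0.01, beside 0.04 for all genes. The median size of a difference was 0.10 for these remaining members and 0.19 for all genes, which were not matched for UMIs. In progenitor or fibroblast-like nuclei this size was larger for members (0.21 against 0.18). It was smaller for members in every other class, but only slightly so in vascular endothelial-like nuclei (0.283 against 0.287). The 7 lower members were Trim30d, Trim5, Trim12a, Trim30c, Trim66, Trim67 and Trim31. Of these, 3 were among the 6 Trim12 and Trim30 genes, which were set apart on these same values, and 1 among the 4 neighbours. Trim66 (19 and 7 UMIs, -0.86, -2.35 to 0.45), a chromatin reader, and Trim31 (15 and 6 UMIs, -0.74, -2.40 to 0.70), known for ubiquitination of the adaptor MAVS, had intervals that included 0. Both turned under an alternative, Trim66 to 0.57 after thinning and Trim31 to 0.71 in cluster 0. The 2 higher members were Trim43a (14 and 40 UMIs, 0.24 and 1.02 CPM, 2.09, 1.19 to 3.09) and Trim43c (100 and 111 UMIs, 1.70 and 2.82 CPM, 0.73, 0.33 to 1.13), known from the early embryo. Trim43a was at -0.76 in cluster 4 (8 and 5 UMIs, under the minimum of 20) and at -0.43 after thinning, so its direction was not shown to be stable.

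**Figure D4:**
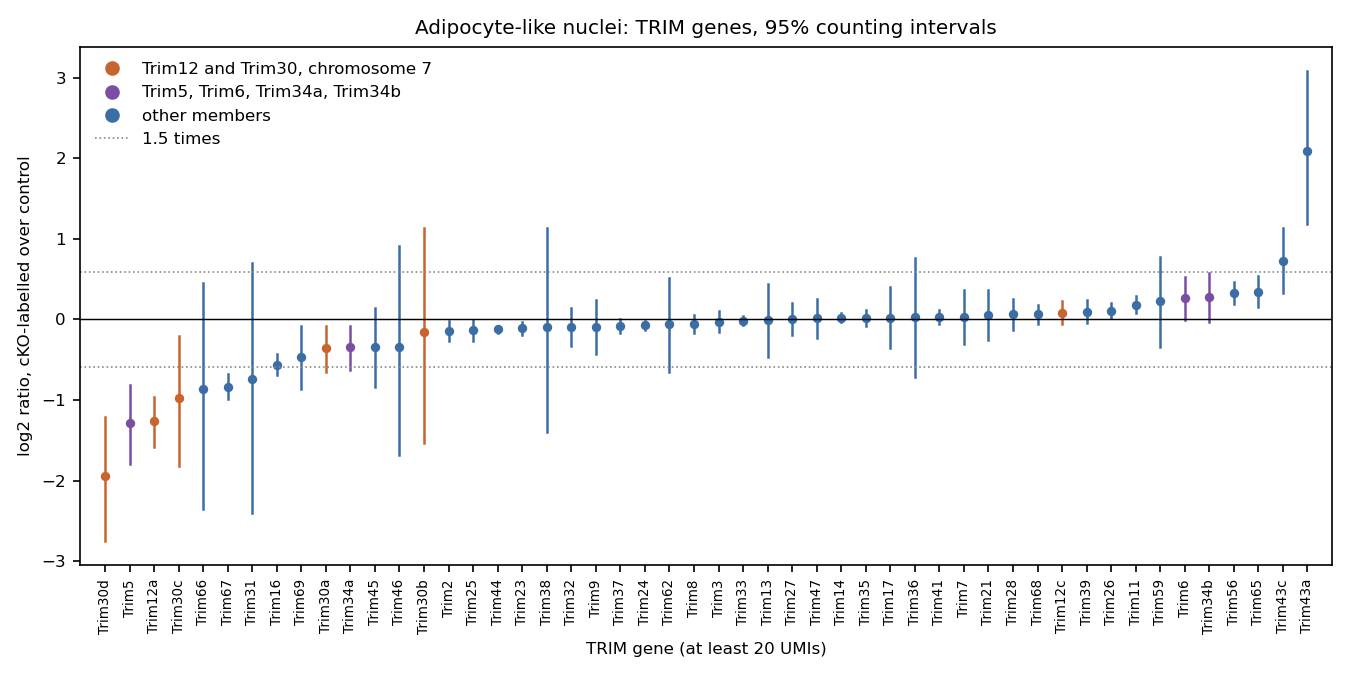
Log2 ratio (y axis, cKO-labelled over control) of the 50 TRIM genes with at least 20 UMIs in adipocyte-like nuclei, sorted; lines are 95% counting intervals and dotted lines mark 1.5 times. Most members lie near 0, the lowest 4 are Trim30d, Trim5, Trim12a and Trim30c, and Trim43a is the highest.

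By role, most innate immune members lay near equal in adipocyte-like nuclei. Of 14 in this list, 13 could be read, none was at least 1.5 times higher and only Trim31 was lower, with a median of 0.02. Trim14, a mitochondrial adaptor of antiviral signalling, was at 117 and 118 CPM (0.02, -0.03 to 0.07), and Trim25, the ligase that activates the RNA sensor RIG-I, at 21.2 and 19.4 CPM (-0.13, -0.27 to -0.00). Trim56 (15.8 and 19.9 CPM, 0.33, 0.19 to 0.47) and Trim65 (8.22 and 10.4 CPM, 0.34, 0.15 to 0.54), both linked to sensing of viral nucleic acids, were the highest. Trim65 overlaps Trim47 on the same strand. Of the 4 chromatin members, all but Trim66 were close to equal: the co-repressor Trim28 (KAP1) was at 9.16 and 9.57 CPM (0.06, -0.13 to 0.26), the nuclear receptor coregulator Trim24 at 123 and 117 CPM (-0.07, -0.13 to -0.02) and Trim33, a regulator of SMAD signalling, at 124 and 123 CPM (-0.01, -0.07 to 0.04). Trim28 was above 0 in all 8 classes in which it could be read, with the widest gap in dendritic-like nuclei (23 and 23 UMIs, 11.3 and 21.1 CPM, 0.91, 0.01 to 1.81) and 0.00 in mesothelial-like nuclei. Among 11 of 16 other named members that could be read, none passed 1.5 times. Trim16, linked to autophagy of damaged lysosomes, was the lowest of them at 25.2 and 17.1 CPM (-0.56, -0.69 to -0.43), with -0.01 (-0.32 to 0.29) in cluster 4 and -1.63 (-2.42 to -0.91) in cluster 11. The remaining members of the naming rule were Trim69 (-0.46), Trim45 (-0.34), Trim46 (-0.34), Trim2 (-0.14), Trim39 (0.10), Trim26 (0.11), Trim11 (0.18) and Trim59 (0.22).

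Several members had a high level in 1 class of nuclei in both libraries. TRIM genes were left out of the genes used for clustering, and these levels are a description. Trim9, a brain-enriched ligase that acts in axon guidance, was a gene of mesothelial-like nuclei here, the lining cells of the peritoneum. It stood at 223 CPM (1501 UMIs) in control and 237 CPM (773 UMIs) in cKO-labelled mesothelial-like nuclei. Among the 10 compared classes, this was 23.8 times the next in the control, T cell-like nuclei, and 16.3 times the next in the cKO-labelled library, granulocyte-like nuclei with 4 UMIs. Outside them, pericyte-like nuclei had 21.6 and 10.0 CPM (7 and 2 UMIs) and unnamed cluster 3 had 21.1 and 19.2 CPM (32 and 48 UMIs). Both mesothelial-like clusters shared this level, at 206 and 240 CPM in cluster 7 and 249 and 232 CPM in cluster 8. With each nucleus thinned to 1000 UMIs, 16.6% (14.4 to 19.1%) of control and 19.1% (15.8 to 22.8%) of cKO-labelled mesothelial-like nuclei had a Trim9 UMI, and without thinning 51.0% and 51.8%. The thinned shares of T cell-like nuclei were 1.10% and 1.39%. Before thinning, T cell-like nuclei had medians of 3603 and 3747 UMIs, and mesothelial-like nuclei 5604 and 5277.

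Trim7, a ligase first found as a partner of glycogenin, was highest in B cell-like nuclei, with 146 and 79 UMIs (123 and 84.5 CPM, -0.54, -0.95 to -0.13). Of the compared classes, dendritic-like nuclei came next at 15.7 and 25.7 CPM. The small intestinal epithelial-like class had 22.0 and 20.2 CPM (21 and 5 UMIs), and the pancreatic acinar-like class 2.41 and 27.6 CPM (1 and 34 UMIs). The thinned shares of B cell-like nuclei with a Trim7 UMI were 11.9% (8.40 to 16.3%) and 9.52% (5.31 to 15.5%), and T cell-like nuclei had 0.27% and 0 of 216, which allows a share of up to 1.39% by the limit of 3 counts. Thinned shares of dendritic-like nuclei were 0.96% and 1.90% (0.39 to 5.45%), and the latter interval overlapped that of B cell-like nuclei. Without thinning, the shares were 31.1% and 32.2% of B cell-like, 7.67% and 13.75% of dendritic-like and 3.02% and 4.15% of T cell-like nuclei. The third member at least 2 times above every other compared class in both libraries was Trim30c in macrophage-like nuclei, with B cell-like nuclei next at 12.6 and 23.5 CPM. Its thinned shares were 3.56% (2.49 to 4.92%) and 5.41% (3.65 to 7.68%) in macrophage-like and 0.27% and 0.93% in T cell-like nuclei. B cell-like nuclei had 0.35% and 1.36% (0.17 to 4.83%), and dendritic-like nuclei 0.64% and 1.90% (0.39 to 5.45%). Both of these cKO-labelled intervals overlapped that of macrophage-like nuclei. Without thinning, 15.4% and 20.1% of macrophage-like, 4.90% and 10.1% of B cell-like and 6.71% and 6.25% of dendritic-like nuclei had a UMI.

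Other members marked the 10 compared classes less sharply. Trim2, a ligase with an NHL domain that binds neurofilament, was lowest in adipocyte-like nuclei (23.9 and 21.7 CPM). In the control it was highest in progenitor or fibroblast-like nuclei (138 CPM), with vascular endothelial-like nuclei next (130 CPM) and lymphatic endothelial-like nuclei at 129 CPM. In the cKO-labelled library lymphatic endothelial-like nuclei were highest (153 CPM) and progenitor or fibroblast-like nuclei stood at 145 CPM, so the order differed between the libraries. Trim24 was highest in lymphatic endothelial-like (271 and 305 CPM) and vascular endothelial-like nuclei (211 and 203 CPM), and in the other classes lay between 79.4 and 151 CPM. Trim14 ran from 160 and 169 CPM in T cell-like nuclei to 23.8 and 30.3 CPM in mesothelial-like nuclei, and the small natural killer or innate lymphoid-like class had 205 and 184 CPM (193 and 71 UMIs). Trim36, a ligase tied to microtubules, was highest in dendritic-like (35.3 and 30.3 CPM) and macrophage-like nuclei (22.5 and 20.7 CPM), and stood at 0.70 and 0.71 CPM in adipocyte-like nuclei. Trim59 was highest in B cell-like (27.8 and 33.2 CPM) and T cell-like nuclei (19.4 and 20.7 CPM), Trim62 in lymphatic endothelial-like nuclei (27.3 and 17.4 CPM) and Trim6 in mesothelial-like nuclei (14.1 and 13.5 CPM). For Trim24, Trim14, Trim36, Trim59, Trim62 and Trim6 the compared class with the highest level was the same in both libraries. Among classes too small to compare, intestinal epithelial-like nuclei (119 and 18 nuclei) held Trim31 at 73.4 and 52.6 CPM (70 and 13 UMIs) and Trim2 at 413 and 235 CPM. Trim2 was also at 281 and 140 CPM in pericyte-like (91 and 28 UMIs) and 169 and 125 CPM in smooth muscle-like nuclei.

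**Figure D5:**
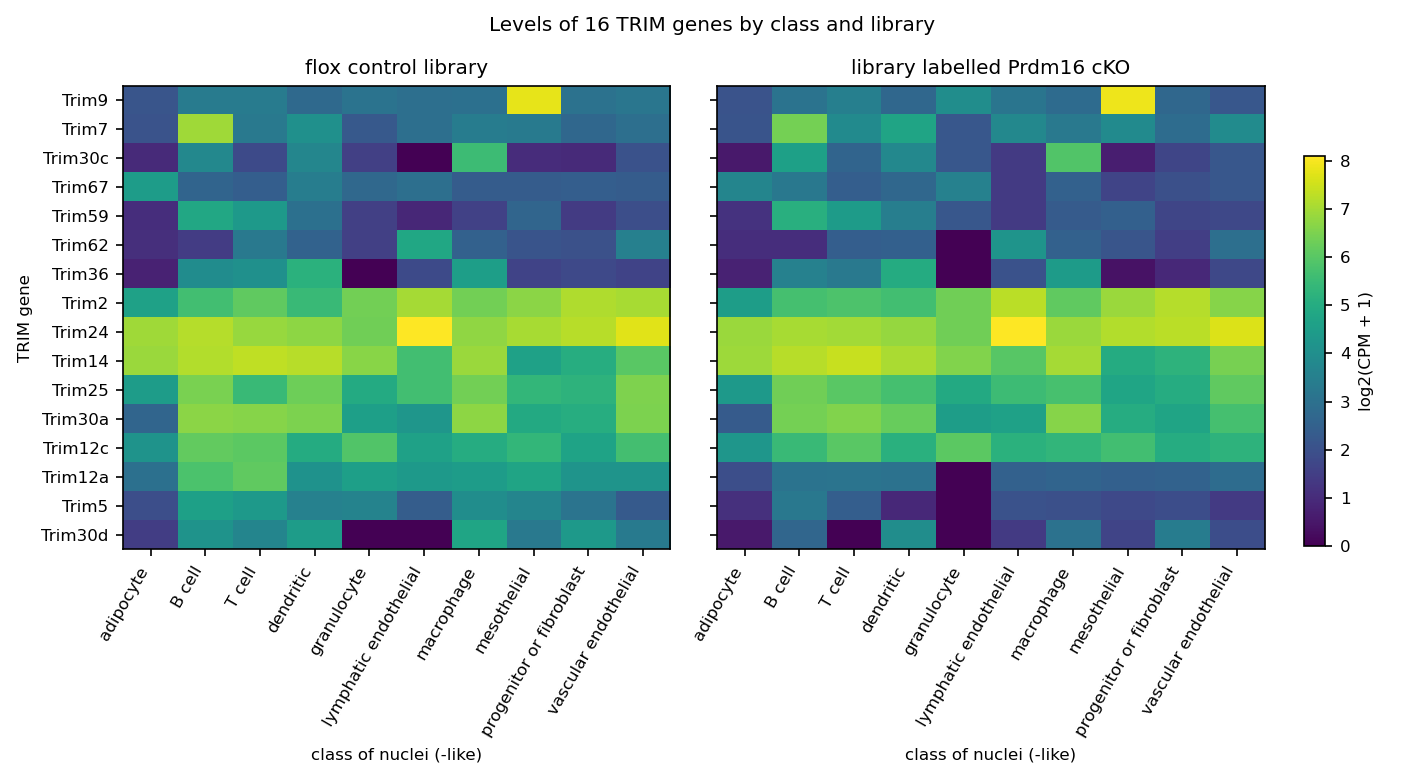
Level as log2(CPM + 1) (colour) of 16 TRIM genes (rows) in the 10 compared classes (columns) of each library. Trim9 stands out in mesothelial-like, Trim7 in B cell-like and Trim30c in macrophage-like nuclei of both libraries, whereas Trim12a and Trim5 have lower values in the library labelled Prdm16 cKO in each class with at least 20 of their UMIs.

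Counts of members at least 1.5 times apart were also taken in the 9 other classes. In T cell-like nuclei 7 of 32 members read were lower (8.65% of all genes) and 1 was higher (11.8%), and in B cell-like nuclei 7 of 31 were lower (9.08%) and 3 higher (13.8%), among them Trim56 (32 and 43 UMIs, 26.9 and 46.0 CPM, 0.77, 0.08 to 1.48). Progenitor or fibroblast-like nuclei had 7 of 42 lower (4.43%) and 2 higher (8.13%), and vascular endothelial-like nuclei 8 of 37 lower (9.04%) and 1 higher (13.8%), Trim7 (26 and 35 UMIs, 1.03, 0.26 to 1.82). Macrophage-like nuclei had 6 of 41 lower (5.54%) and 2 higher (8.24%), mesothelial-like nuclei 6 of 39 lower (5.07%) and 3 higher (8.12%), and dendritic-like nuclei 6 of 36 lower (7.20%) and 4 higher (12.0%). Lymphatic endothelial-like nuclei had 4 of 23 lower (8.72%) and 2 higher (10.7%), the latter including Trim35 (35 and 32 UMIs, 0.76, 0.02 to 1.49). Granulocyte-like nuclei had 0 of 15 lower (7.95%) and 2 higher (14.0%), and no gene of the Trim12 and Trim30 group except Trim12c reached 20 UMIs there. The genes of the block and Trim5 made up a part of the lower members in each class with any. In mesothelial-like nuclei the lower members were Trim12a, Trim5, Trim30d, Trim25, Trim67 and Trim46, and the highest member was Trim17 (18 and 20 UMIs, 1.19, 0.20 to 2.20). Trim25 was lower in macrophage-like (82.3 and 52.3 CPM, 414 and 144 UMIs, -0.65, -0.94 to -0.38), mesothelial-like (39.8 and 26.0 CPM, -0.62, -0.98 to -0.26) and dendritic-like nuclei (78.9 and 51.5 CPM, -0.62, -1.08 to -0.17), and higher in T cell-like nuclei (43.8 and 64.6 CPM, 0.56, 0.07 to 1.05).

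Other genes of the interferon pathway were taken from a list of 30 interferon-response genes, of which 28 were in the files. In adipocyte-like nuclei 27 could be read. Of these, 1 was at least 1.5 times higher, Irf7, a transcription factor that amplifies interferon production (104 and 130 UMIs, 0.90, 0.52 to 1.29). The 1 that was lower, Ifi44, had an interval that included 0 (33 and 14 UMIs, -0.66, -1.67 to 0.28). The median was 0.02, beside 0.04 for all genes. Next highest were Ifit3 (0.38) and Ifit1 (0.37), and next lowest Ifit2 (-0.52) and Rsad2 (-0.32). Upstream genes were close to equal, with Stat2 at 34.8 and 36.9 CPM (0.08), Jak1 at 198 and 195 CPM (-0.02) and Ifnar1, a chain of the type I interferon receptor, at 26.7 and 27.2 CPM (0.02). Of 16 receptor and sensing genes, 14 were in the files and all could be read in adipocyte-like nuclei, with 1 higher, Tmem173 (the sensor adaptor STING, 29 and 33 UMIs, 0.77, 0.00 to 1.54), and none lower. T cell-like nuclei had 3 response genes higher and 1 lower of 20, beside 11.8% and 8.65% of all genes. Vascular endothelial-like nuclei differed from this: 9 of 24 response genes were at least 1.5 times lower and 0 higher, beside 9.04% and 13.8% of all genes, and 23 of 24 lay below 0, with a median of -0.45 beside 0.03 for all genes. They included Oasl2 (39.9 and 18.2 CPM, -1.13, -1.64 to -0.65), Xaf1 (38.4 and 19.4 CPM, -0.98, -1.48 to -0.51) and Rnf213 (176 and 106 CPM, -0.73, -0.94 to -0.52). This is the class in which Trim30a was lower too and where summed adipocyte markers came to 23.9% (control) and 43.2% (cKO-labelled) of the level in adipocyte-like nuclei. The part of that RNA in these values was not tested. In progenitor or fibroblast-like nuclei 6 of 25 response genes were lower and 0 higher, beside 4.43% and 8.13% of all genes, with a median of -0.18 beside 0.04.

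Some TRIM proteins have genes with other names, and these lay within 1.5 times in adipocyte-like nuclei where they could be read. Pml, the scaffold of nuclear bodies, was at 18.0 and 22.1 CPM (0.30, 0.17 to 0.43), and the microtubule-binding ligase genes Mid1 and Mid2 at 80.9 and 84.0 CPM (0.05, -0.01 to 0.12) and 99.7 and 91.5 CPM (-0.12, -0.18 to -0.06). Mefv, which encodes pyrin, had 4 and 2 UMIs. Of the 10 classes, Mid1 was highest in progenitor or fibroblast-like nuclei, at 668 and 699 CPM.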

How the data were processed

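The deposited matrices hold raw counts of UMIs per gene and nucleus, and the submitters' processing notes name Cell Ranger 6.1.2 and mm10. Annotation release, intronic reads, strand and barcode filter: not given in the sources used here. Nuclei were isolated from snap-frozen tissue, and libraries used the 10x 3' kit v3.1, per the labels' protocols. Kept nuclei had at least 500 UMIs, 300 genes and under 5% mitochondrial UMIs (the last took out 449 barcodes of the control and 217 of the other library). The own threshold of Scrublet (in scanpy 1.11.5) marked 0.06% and 0.03% of nuclei, so those with the highest scores were removed at 0.8% per 1000 nuclei (1079 and 495). Both libraries were clustered together with no correction between them (log-scaled counts, 2000 variable genes without TRIM members, 30 principal components, 20 neighbours, leidenalg 0.10.2 at resolution 1.0). A cluster took a "-like" name from at least 3 of a set's markers, each in 5% of nuclei and at 2 times the mean of other clusters, with no other set holding more of its top 10 genes. Clusters of very low depth with no marker among those 10 stayed unnamed, as did any with fewer markers (cluster 3 here). Names were rebuilt here and can differ from the study's.

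UMIs of a class were added up within each library and scaled to CPM, with exact 95% Poisson intervals. Log2 ratios have exact conditional binomial intervals. In simulated Poisson counts drawn from adipocyte-like sums, 95.8% of intervals over 17639 genes held the true ratio. Such counts follow the model that the intervals assume, so this checks the computation and not the spread between nuclei or animals. A gene was read at 20 UMIs or more, and called at 1.5 times. With 1 library per genotype no p-value was computed. Positions are from GENCODE M21 (GRCm38) for 32235 of 32285 identifiers. Genes named are those of the block and Trim5, Trim6, Trim34a and Trim34b, the 8 highest and 8 lowest other members in adipocyte-like nuclei, members at least 2 times above every other class in both libraries, the furthest member each way per class, neighbours past 1.5 times and the 3 highest and lowest interferon genes. Other genes were named after their values were seen, for their role or their class. Members and lists were chosen with earlier results of these data known. Alternatives covered doublets, depth (thinning), TMM scaling (edgeR 4.0.16), averaging, 10% free RNA, clustering and the minimum count. One withheld item is not reported here.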

Additional observations from a re-analysis of the deposited data

Results flagged for a closer look

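Trim34b lay in opposite directions in 2 classes. In mesothelial-like nuclei its log2 ratio was 0.74 (42 and 34 UMIs, 0.04 to 1.42) and in vascular endothelial-like nuclei it was -0.98 (39 and 13 UMIs, -2.01 to -0.05), each with an interval that excluded 0. The difference between the classes was not tested, since each class had 1 library per genotype. Trim34b shared 34.9% of its 90-base words with Trim34a, whose ratios were -0.20 and -0.54 in these classes.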

How the results depend on the processing

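Of 401 values recomputed under an alternative, 8 changed sign among those past 1.5 times, all of single genes. In adipocyte-like cluster 6 alone, Trim12a, Trim30c and Trim30d were each at 0.53 and Trim5 at 0.08 (0.0779 before rounding). Thinning turned Trim66 to 0.57 and Trim43a to -0.43, cluster 0 turned Trim31 to 0.71 and cluster 4 turned Trim43a to -0.76. Trim12a in cluster 6 met the minimum of 20 UMIs. Trim5 and Trim30d in cluster 6 and Trim43a in cluster 4 were under it, so no direction can be read from those values. Trim66 and Trim31 had intervals in the whole class that spanned both directions, so their sign changes cannot be told from counting error. The count of higher members, 2, was 1 in clusters 0 and 1, 4 in cluster 6, 7 with no minimum count and 1 with a minimum of 100 UMIs. The count of lower members, 7, was 2 after thinning, 3 in cluster 4, 1 in cluster 6 and 4 with a minimum of 100 UMIs. With fewer UMIs, fewer members could be read. The Trim12 and Trim30 sum in adipocyte-like nuclei was -0.16 in cluster 1, -0.50 in cluster 4 and 0.30 in cluster 6. By class, it was -0.26 in B cell-like, 0.19 in dendritic-like and -0.17 in progenitor or fibroblast-like nuclei after thinning. As a mean of CPM per nucleus it was 0.10 in dendritic-like and -0.48 in vascular endothelial-like nuclei, and with no nuclei removed as doublets -0.50 in the latter. The cause of these shifts was not tested. The median of members other than the Trim12 and Trim30 genes stayed between -0.05 and 0.09. TMM scaling moved every ratio by -0.17 in granulocyte-like nuclei and by less than 0.1 in the other classes. No paired analysis was possible because each genotype had 1 library. Depth limits the rarer members: 18 of 68 could be read in no class.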
